A study of Homo sapiens with 2 samples.

Results

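The zinc-finger genes that lie near each other in the band given as 19q13.41, on the long arm of chromosome 19, were compared between A549 and A549/DDP. The list ran from ZNF175 to ZNF331 and named 37 genes, of which 32 were among the 19777 genes that the arrays measured with a probe set of their own. They were chosen by name as neighbours on the chromosome, in a list drawn up with the differences between these 2 arrays in view, so their signals are described with no test. Where a gene had several single-gene probe sets, the one brightest on average over both arrays was used. A549 is a human lung adenocarcinoma line, labelled as the parental line. A549/DDP is its cisplatin-resistant derivative, labelled as chemoresistant, and no drug dose, time or vector is given for either sample in the titles or phenotypes. A free-text note on the A549/DDP sample speaks of ZNF300 overexpression, and the title was followed. Total RNA of trypsinised cells was hybridised to 1 Affymetrix array for each line, so no value has a replicate. In bulk RNA, fewer cells that express a gene and less of its RNA in each cell cannot be told apart.

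Zinc-finger proteins of this family bind DNA through a row of fingers, each folded around a zinc ion, and most carry a KRAB domain at their other end. The KRAB domain recruits TRIM28, which brings the histone methyltransferase SETDB1 and HP1 proteins and thereby silences the bound site. Many of their targets are transposable elements. The genes arose by repeated tandem duplication, so neighbours resemble each other in sequence, and probe sets of the _x_at and _s_at kinds can bind transcripts of several relatives.

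The 2 arrays were alike in scale. Their floors, the array medians over probe sets other than controls, were 6.22 for A549 and 6.18 for A549/DDP on the log2 scale. Genes over the floor on either array are called expressed, and the floor is a brightness limit, not a measured background. Over 13159 expressed genes the median log2 difference was 0.00 and the SD was 0.74. Where a gene had several probe sets over the floor (6570 genes), the SD of their differences had a median of 0.38. That SD is a spread between probe sets on the same 2 arrays and holds no variation between cultures or arrays. ZNF300, the gene that the study followed, was read at 7.59, over the floor, in A549 and at 5.76, under it, on the array labelled A549/DDP. That direction is opposite to the one the study reports, and every direction given here follows the sample titles. Whether the titles match the arrays was not tested. The epithelial keratins KRT8 and KRT18 had log2 signals of 10.83 and 13.12 in A549 and of 11.99 and 14.50 in A549/DDP. Of the markers EPCAM, CDH1 and KRT19, the first 2 were over the floor in A549 only, and the probe set read for KRT19 was under it on both arrays, as was CDKN2A, which A549 is known to have lost. Of 10 markers of blood, endothelial and fibroblast cells, CD3E, CD79A and COL1A2 were over the floor in A549/DDP only and COL1A1 on both arrays, with a highest log2 signal of 9.77. Their part in the differences of the zinc-finger genes was not tested.

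Of the 32 measured genes, 19 were expressed. The 3 neighbours ZNF615, ZNF614 and ZNF432 were at least 3-fold lower on the A549/DDP array, and ZNF350, which precedes them, was 2.26-fold lower. No listed gene was 3-fold higher. In all, 15 of the 19 were lower and 4 higher, with a median log2 difference of -0.35. For 5 of the 19 the value of the dimmer array was raised to the floor, which makes their differences bounds. Their directions were the same in the deposited values, but each rests on a signal under the floor. Of the 14 genes over the floor on both arrays, 12 were lower. Over all 11148 genes over the floor on both arrays the median log2 difference was 0.01. Their share lower was not computed, and nothing is read from the 12.

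The promoters of these neighbours are shown first. ZNF615, ZNF614 and ZNF432 had the largest differences among the expressed listed genes with the floor applied, and ZNF350 is the gene before them. Of the 37 genes, 31 matched a promoter entry of RefSeq (GRCh38.p14), which spans 250 bases before to 50 after a transcription start; the first start listed was taken. The windows lie on the minus strand at chr19:51986791-51987090 for ZNF350, chr19:52008162-52008461 for ZNF615, chr19:52028330-52028629 for ZNF614 and chr19:52048789-52049088 for ZNF432. Positions are counted from 1 at the first transcribed base, with -1 just before it. Capitals mark exact matches, on either strand, to GGGCGG (the GC box), CCGGAAG (the core bound by ETS factors), AAGATGGCG (a core bound by YY1) and CCAAT.
ZNF350: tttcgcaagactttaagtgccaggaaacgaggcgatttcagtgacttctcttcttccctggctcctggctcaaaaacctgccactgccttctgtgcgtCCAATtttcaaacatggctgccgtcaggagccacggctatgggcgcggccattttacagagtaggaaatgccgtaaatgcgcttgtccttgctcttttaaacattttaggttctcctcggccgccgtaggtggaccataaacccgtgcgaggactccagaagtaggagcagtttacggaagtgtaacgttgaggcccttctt
ZNF615: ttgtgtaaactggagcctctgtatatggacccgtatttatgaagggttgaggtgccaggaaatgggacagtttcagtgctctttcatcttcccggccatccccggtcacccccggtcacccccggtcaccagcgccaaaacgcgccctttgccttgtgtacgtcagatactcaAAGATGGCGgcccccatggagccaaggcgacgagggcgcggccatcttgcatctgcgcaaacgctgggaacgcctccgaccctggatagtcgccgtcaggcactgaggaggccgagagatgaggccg
ZNF614: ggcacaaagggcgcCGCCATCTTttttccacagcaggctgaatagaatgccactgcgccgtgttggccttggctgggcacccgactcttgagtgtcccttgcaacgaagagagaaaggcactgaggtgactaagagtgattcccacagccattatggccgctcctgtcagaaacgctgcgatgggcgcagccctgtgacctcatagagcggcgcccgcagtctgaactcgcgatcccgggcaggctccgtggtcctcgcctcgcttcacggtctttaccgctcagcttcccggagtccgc
ZNF432: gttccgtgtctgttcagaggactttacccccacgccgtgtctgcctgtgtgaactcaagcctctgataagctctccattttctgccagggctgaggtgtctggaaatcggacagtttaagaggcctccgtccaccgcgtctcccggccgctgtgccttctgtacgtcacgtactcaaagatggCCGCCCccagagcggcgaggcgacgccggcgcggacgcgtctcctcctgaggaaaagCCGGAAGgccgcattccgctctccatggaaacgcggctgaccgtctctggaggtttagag

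ZNF614 and ZNF615 were the only 2 of the 31 windows with AAGATGGCG, 6.45% of them, beside 2.67% of 374 other ZNF genes and 1.85% of 27305 promoters of all genes. In ZNF615 the match began at position -77. In ZNF614 it began at position -236, on the other strand. The longest run that ZNF615 and ZNF432 shared was tactcaaagatggc, of 14 bases, which began at positions -83 and -80 and overlaps the match in ZNF615. ZNF350 shared the 12 bases gggcgcggccat with ZNF615. ZNF350 carried CCAAT, and ZNF350, ZNF615 and ZNF614 carried neither a GC box nor the ETS core. A match describes these letters and does not show that a factor was bound.

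ZNF614 had the largest difference among the 19 expressed genes with the floor applied, and its 2 probe sets over the floor were both lower in A549/DDP. Its log2 signal was 9.74 in A549 and 6.81 in A549/DDP, a difference of -2.93 or 7.61-fold, and it stood 41st from the lowest of the 13159 expressed genes. A second probe set, over the floor in A549 only, read 6.94 and 4.94, a difference of -2.00. The third was under the floor on both arrays, at 5.45 and 5.75. With values under the floor raised to it, the second probe set gave only a bound of -0.75.

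ZNF432, the next gene in the order and one that has been linked to DNA repair, was lower as well. Its log2 signal was 9.33 in A549 and 6.95 in A549/DDP, 5.20-fold lower and 68th from the lowest. It was read by a single probe set of the _s_at kind, which can bind related transcripts, so no second reading was at hand.

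ZNF615, on the other side of ZNF614, was read at 8.84 in A549 and 7.04 in A549/DDP, which is 3.48-fold lower. It too had 1 probe set, and it stood 200th from the lowest. ZNF350, also known as ZBRK1, is a KRAB repressor that binds BRCA1 and represses GADD45A. Its log2 signal was 8.33 in A549 and 7.16 in A549/DDP, a difference of -1.17 that was short of 3-fold. Its other probe set was under the floor on both arrays, at 4.57 and 5.06.

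The genes on either side of this run gave weaker readings. On the far side, ZNF841 had no probe set of its own. ZNF616, the next after it, was read at 6.52 in A549 and 6.89 in A549/DDP, a difference of 0.37, no larger than the median SD of probe sets. Its second probe set, under the floor on both arrays, went the other way, at 6.14 and 5.23. ZNF836 was under the floor in A549, at 5.73, and over it in A549/DDP, at 6.68, and was thus at least 1.38-fold higher. That probe set is of the _x_at kind. Another one of ZNF836, under the floor on both arrays, went the other way, at 4.42 and 3.63. On the near side, ZNF613 was under the floor on both arrays, at 5.56 and 6.18. ZNF649, which precedes it and encodes a KRAB repressor, was also under the floor, at 4.77 and 2.61.

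**Figure D1:**
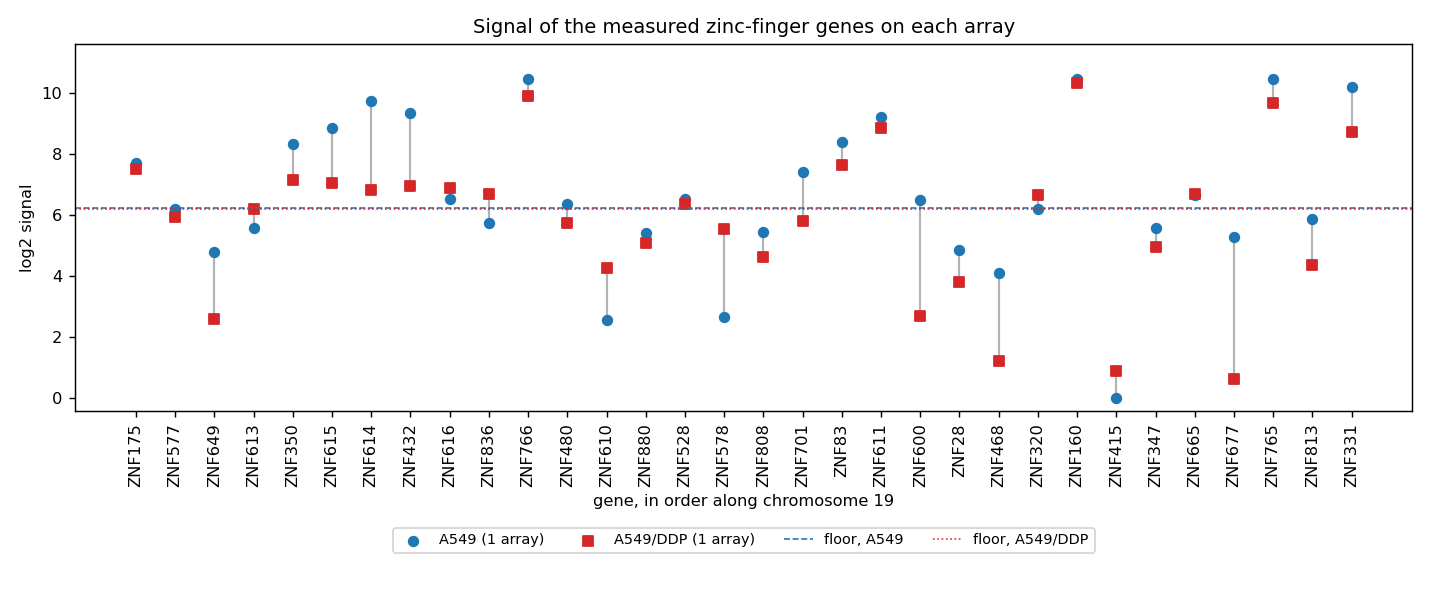
Log2 signal of the 32 measured genes on the A549 array (circles) and the A549/DDP array (squares), in their order along chromosome 19, with a line joining the 2 values of a gene and a dashed (A549) and a dotted (A549/DDP) line at the floors of 6.22 and 6.18. From ZNF350 to ZNF432 all 4 circles lie over their squares, with both values over the floor, while 13 genes lie under the floors on both arrays.

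Beside these counts stand the shares over all expressed genes. The 3 listed genes past 3-fold on the lower side are 15.8% of 19, and 2.18% of 13159 expressed genes passed that mark. On the higher side 0 of the 19 passed it, and 2.14% of all expressed genes did. At 2-fold, 6 of the 19 were lower (31.6%) and 0 higher, beside 7.40% and 6.13% of all. By any amount, 78.9% of the 19 were lower and 49.6% of all. Both of these shares include genes with a value raised to the floor. Since the list was drawn up with these differences known, nothing is read from the gaps between these shares.

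The 5 genes with the brightest probe sets were ZNF160, ZNF766, ZNF765, ZNF331 and ZNF611, and all 5 were lower in A549/DDP by that probe set. ZNF331, an imprinted gene at the far end of the list, was read at 10.19 in A549 and 8.72 in A549/DDP, 2.77-fold lower and just short of the 3-fold mark. Its second probe set, over the floor on both arrays as well, was 2.10-fold lower, a difference of -1.07.

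ZNF765 was read at 10.47 in A549 and 9.68 in A549/DDP, a difference of -0.79. A second probe set, of the _x_at kind, read 10.31 and 9.30, a difference of -1.01 in the same direction. The third was near 0 on both arrays, at 0.85 and 0.84. ZNF766, with 1 probe set, was read at 10.46 and 9.90, which is 1.48-fold lower.

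ZNF160, which has been described as a repressor of the TLR4 gene, was nearly level by its brightest probe set, at 10.45 and 10.33. That probe set is of the _x_at kind, and the other 3 over the floor did not give 1 answer. They differed by -1.11, -0.77 and 0.85, the last 2 with 1 array under the floor. ZNF611 was likewise read by an _x_at probe set, at 9.20 and 8.86, a difference of -0.35. Its other probe set lay under the floor on both arrays and read 6.22 and 3.58. For ZNF160 the brightest reading and the dimmer ones thus went apart. For ZNF611 the other reading, under the floor, gives no difference to compare.

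**Figure D2:**
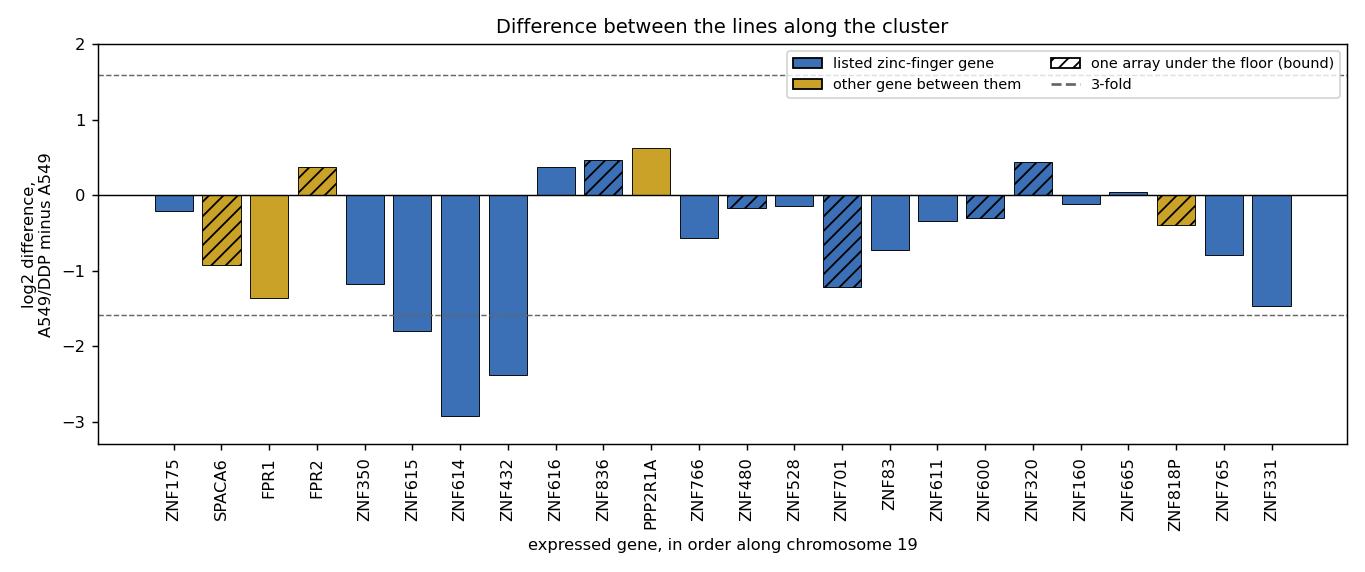
Log2 difference, A549/DDP minus A549, of the 19 expressed zinc-finger genes (blue) and of the 5 other expressed genes that lie between them (ochre), in their order along chromosome 19; hatched bars are bounds with 1 array under the floor, and dashed lines mark 3-fold. ZNF615, ZNF614 and ZNF432 pass the lower line side by side, and ZNF331 at the far end reaches -1.47.

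No other expressed gene was past 3-fold with the floor applied. ZNF701 was read by an _x_at probe set, at 7.40 in A549 and, under the floor, at 5.79 in A549/DDP. It was at least 2.32-fold lower. Its second probe set was under the floor on both arrays, at 6.08 and 3.21. ZNF83 was read at 8.39 and 7.65, a difference of -0.73, by an _s_at probe set, while its second probe set read 5.92 and 6.63 and so went the other way. The direction of ZNF83 therefore depends on the probe set.

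ZNF600 shows how much the floor decides. Its deposited log2 signals were 6.50 and 2.69, a 14.0-fold difference, yet with the lower value raised to the floor it was at least 1.24-fold lower. ZNF175, also called OTK18 and known as a factor that limits HIV in macrophages, was read at 7.70 and 7.49, a difference of -0.21. Its second probe set was under the floor on both arrays. ZNF480 (at least 1.13-fold lower), ZNF528 (1.10-fold lower), ZNF665 (1.03-fold higher) and ZNF320 (at least 1.36-fold higher) were the remaining expressed genes. Of the 19 expressed genes 8 were read by an _x_at probe set, namely ZNF836, ZNF528, ZNF701, ZNF611, ZNF600, ZNF320, ZNF160 and ZNF665.

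**Figure D3:**
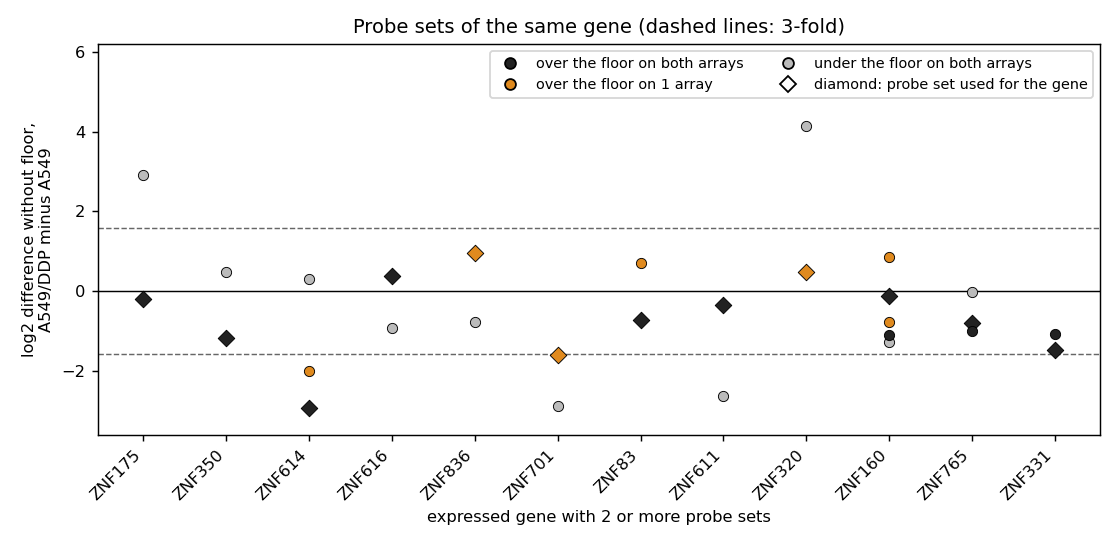
Log2 difference before any floor for every single-gene probe set of the 12 expressed genes with 2 or more of them; black points are over the floor on both arrays, orange on 1 and grey on neither, diamonds are the probe sets used, and dashed lines mark 3-fold. Black and orange points of ZNF614, ZNF765 and ZNF331 keep 1 direction, those of ZNF83 and ZNF160 do not, and grey points reach 4.13 in ZNF320.

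Of 56 single-gene probe sets of the listed genes, 26 were over the floor on at least 1 array, and 20 of the 26 read lower in A549/DDP, beside 49.2% of 25078 such probe sets of all genes. Of 17 over the floor on both arrays 15 read lower, beside 49.0% of 20298. These probe sets include those that the list was drawn up on, and nothing is read from the gaps. Of the 5 genes with at least 2 probe sets over the floor, ZNF614, ZNF765 and ZNF331 had 1 direction in all of them.

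For 13 genes no difference can be given, since they were under the floor on both arrays. They were ZNF577, ZNF649, ZNF613, ZNF610, ZNF880, ZNF578, ZNF808, ZNF28, ZNF468, ZNF415, ZNF347, ZNF677 and ZNF813. ZNF808, which is required for development of the human pancreas, read 5.45 and 4.62. ZNF677, known to be silenced by promoter methylation in lung cancer, read 5.28 and 0.65. Without a floor 5 of the 13 would be past 3-fold, namely ZNF649, ZNF468 and ZNF677 as lower and ZNF610 and ZNF578 as higher, but both values of each lie under the array medians. ZNF841, ZNF816, ZNF845, ZNF525 and ZNF761 had no single-gene probe set and were not analysed here.

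Position along the cluster was described by a landmark that is no zinc-finger gene. PPP2R1A, the scaffold subunit of protein phosphatase PP2A, lies after the first 11 listed genes. It was 1.54-fold higher in A549/DDP, at 8.57 and 9.20. Of the 11 genes before it 7 were expressed, with a median difference of -1.17, and all 3 genes past 3-fold lie there. Of the 26 after it 12 were expressed, with a median of -0.33, a lowest value of -1.47 and a highest of 0.44. Of these 12 genes 10 were lower, bounds included. Where the list is divided was settled after the values had been seen, and the difference between the sides was not tested.

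Other genes lie between the zinc-finger genes. Of 83 such genes in the annotation, 15 were measured and 5 expressed, of which 3 were lower and 0 past 3-fold. FPR1, a formyl peptide receptor of phagocytes, was 2.57-fold lower, at 8.14 and 6.78. SPACA6, a sperm membrane protein needed for fertilisation, was at least 1.90-fold lower, and FPR2 was at least 1.29-fold higher. The pseudogene ZNF818P was at least 1.32-fold lower. The genes between the zinc-finger genes thus differed in both directions.

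Set beside other zinc-finger genes of the same arrays, the listed ones had the lowest median. The 128 expressed ZNF genes elsewhere on chromosome 19 had a median difference of -0.22, with 65.6% lower, 2.34% past 3-fold on the lower side and 0.781% on the higher. The 182 on other chromosomes had a median of -0.09, with 56.0% lower and 1.65% at least 3-fold lower. At the 2-fold mark, 18% of the 128 were lower and 4.69% higher. Of the 182, 8.24% were lower and 4.95% higher at that mark. For the 14 listed genes over the floor on both arrays the median was -0.65. It was -0.29 for 106 such ZNF genes elsewhere on chromosome 19, -0.10 for 169 on other chromosomes and 0.01 for all 11148 such genes. With 1 array for each line no test of these differences exists, and the list was made with the values known.

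**Figure D4:**
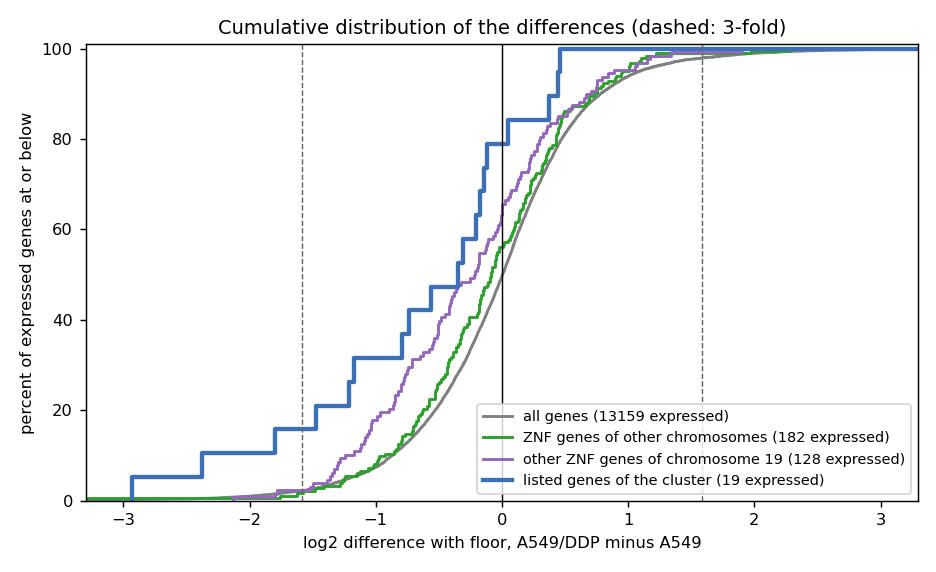
Cumulative percent of expressed genes at or below each log2 difference, A549/DDP minus A549, with the floor applied, for the 19 listed genes, 128 other ZNF genes of chromosome 19, 182 ZNF genes of other chromosomes and all 13159 expressed genes; dashed lines mark 3-fold. The curves cross 0 at 78.9%, 65.6%, 56.0% and 49.6%, and the listed genes end at 0.46.

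The partners through which KRAB proteins repress were all within 2-fold between the arrays. All 17 were expressed, 7 lower and 10 higher, with a median of 0.05 and none past 3-fold in either direction. TRIM28 was 1.27-fold higher and SETDB1 1.02-fold higher. The HP1 proteins CBX3, CBX5 and CBX1 were 1.62-fold, 1.43-fold and 1.07-fold higher. The largest differences were in ZNF274 (1.82-fold lower) and ATRX (1.79-fold lower), which are known to bind the far ends of zinc-finger genes on chromosome 19, where they keep repressive histone methylation. ZNF274 was read at 10.84 and 9.97 and ATRX at 11.12 and 10.27. MPHOSPH8 and TASOR, subunits of the HUSH silencing complex, were 1.52-fold and 1.31-fold lower, and PPHLN1, the remaining subunit, had a difference of 0.26.

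The promoter windows of the cluster were also described by features that the choice of genes did not use. The windows held a median of 25 CG dinucleotides (range 14 to 34), beside 22 for 374 other ZNF genes (quartiles 15 and 29) and 14 for all 27305 promoters. In ZNF350, ZNF615, ZNF614 and ZNF432 the counts were 17, 22, 23 and 27, all within the range of the cluster. The GC box was in 25 of the 31 windows (80.6%), against 63.6% of other ZNF genes and 44.6% of all. The TATA box (TATAAA), the cAMP element TGACGTCA and the AP-1 site TGAGTCA were in 0 of the 31. TATAAA was in 3264 of the 27305 promoters of all genes, and the others were in 1.98% and 4.92%. Among other ZNF genes the shares were 3.48%, 4.28% and 2.67%, so these motifs were rare there too. CCAAT was in 9 of the 31 (29.0%), against 50.3% of other ZNF genes and 35.7% of all.

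The ETS core CCGGAAG was in 19 of the 31 windows (61.3%), against 39.0% of other ZNF genes and 10.7% of all. All 21 matches read in the direction of transcription and began between positions -47 and 17. Some windows are close copies, such as ZNF611 and ZNF845 (83.6% identity in a global alignment), so windows are not independent counts. In 9 windows the match began at position 5 exactly, both of these among them. Genes with that placement included ZNF766, ZNF160, ZNF611 and ZNF765, of which ZNF765 is printed below, while ZNF350, ZNF615 and ZNF614 had no match. ZNF432 had one at position -10.

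**Figure D5:**
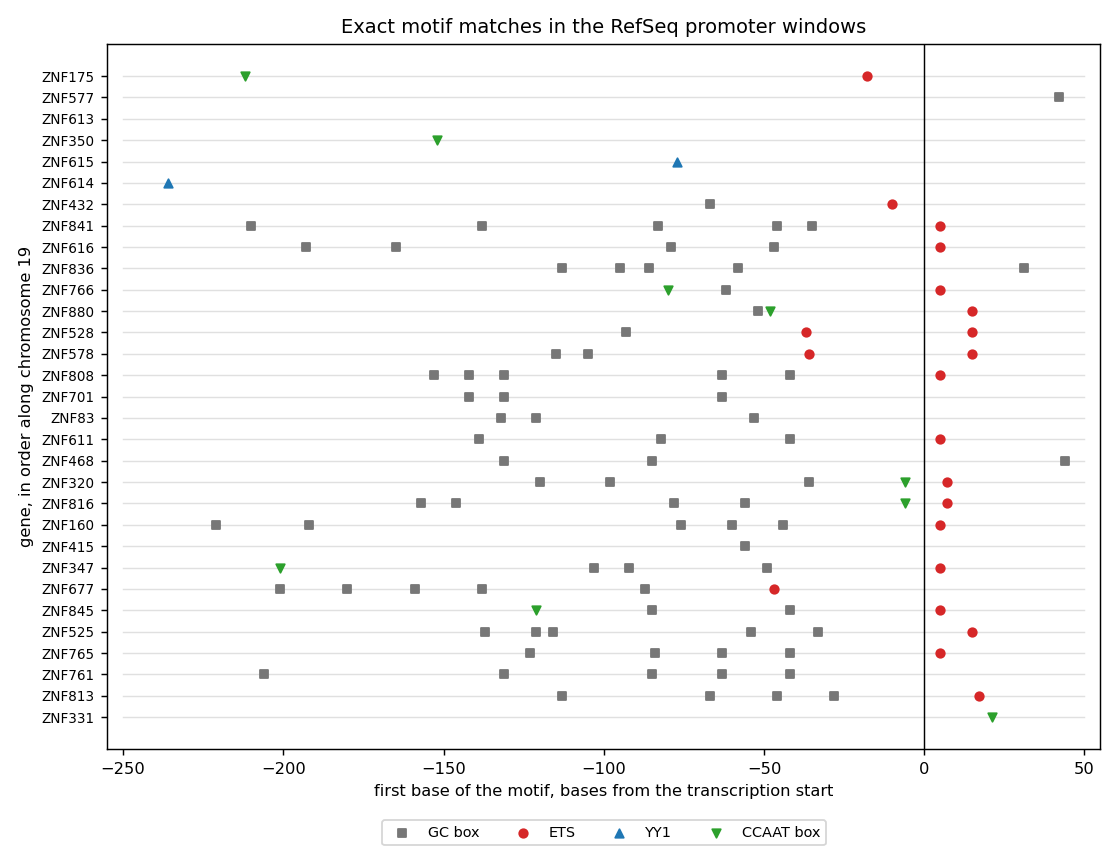
Positions of exact matches to the GC box (GGGCGG), the ETS core (CCGGAAG), the YY1 core (AAGATGGCG) and CCAAT, on either strand, in the 31 promoter windows, in bases from the transcription start at 0, genes in their order along chromosome 19. ETS matches gather around the start, from -47 to 17, and the YY1 core appears in ZNF615 and ZNF614 alone.

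The windows resembled each other to very different degrees. Over 465 pairs of windows the identity in a global alignment ran from 42.5% to 86.0% with a median of 50.2% (identical bases per aligned column). The highest was between ZNF701 and ZNF845. Among the 4 lower neighbours the identity ran from 45.1% (ZNF350 and ZNF615) to 54.5% (ZNF615 and ZNF432). A run of 16 bases, CCCGCCCAGGCCTGGC, was in 8 of the 31 and in 14 of 27305 promoters (0.0513%). Among the 14 is the read-through gene ZNF765-ZNF761, whose window is the same as that of ZNF765, and 0 of the windows of the 374 other ZNF genes held the run. It was picked for its count and is not tested. It holds a GC box on the other strand from its second base on. The stretches below show it in capitals with 12 bases on each side, because its place is nearly the same in all 8. It began at position -43 in ZNF808, ZNF611, ZNF845, ZNF765 and ZNF761, and at -37, -34 and -29 in ZNF320, ZNF525 and ZNF813. The coordinates (GRCh38.p14) are chr19:52527613-52527652 on the plus strand for ZNF808, chr19:52735060-52735099 on the minus strand for ZNF611, chr19:52897704-52897743 on the minus strand for ZNF320 and chr19:53467692-53467731 on the plus strand for ZNF813.
ZNF808: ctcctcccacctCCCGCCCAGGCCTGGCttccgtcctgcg
ZNF611: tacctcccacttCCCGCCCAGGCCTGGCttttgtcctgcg
ZNF320: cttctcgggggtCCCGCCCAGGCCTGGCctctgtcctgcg
ZNF813: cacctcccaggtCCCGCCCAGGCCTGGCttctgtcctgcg

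ZNF765 is printed whole as the bright example of this kind, at chr19:53394899-53395198 on the plus strand of GRCh38.p14, with the same motifs in capitals.
ZNF765: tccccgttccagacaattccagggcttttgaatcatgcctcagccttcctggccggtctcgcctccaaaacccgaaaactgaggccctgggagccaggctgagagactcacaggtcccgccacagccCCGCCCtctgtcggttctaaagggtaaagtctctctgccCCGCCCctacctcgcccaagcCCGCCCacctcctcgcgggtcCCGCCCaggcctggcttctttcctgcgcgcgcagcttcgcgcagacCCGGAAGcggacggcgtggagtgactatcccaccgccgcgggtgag

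Its 4 GC boxes, on the other strand, lie before the start, the last within the shared run, and the ETS core begins at position 5. Of the 8 genes with the shared run, ZNF611 (-0.35), ZNF765 (-0.79) and ZNF320 (at least 0.44) were expressed, ZNF808 and ZNF813 were under the floor on both arrays, and ZNF845, ZNF525 and ZNF761 had no probe set of their own.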

How the data were processed

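Gene expression was measured on 1 Affymetrix array for A549 and 1 for A549/DDP. The authors deposited log2 signals for 54675 probe sets. The submitters' notes name MAS5 and affy, whereas the methods of the study name SCAN/UPC. The trimmed mean of the linear signal (2% left out at each end) was 499.9 on both arrays, as MAS5 scaling gives, and the values were used as deposited. A second table was not used, since its 4 columns of signals and calls are named for other cells (A549-LV5, A549-ZNF300) and the rest are comparisons made by the authors.

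Of the probe sets, 41091 name 1 gene in the platform annotation. Names and gene order came from RefSeq (GRCh38.p14), and 42 gene IDs had no match. Values under the array median (62 control probe sets left out) were raised to it, and a fold with a raised value is a lower bound. The mark was 3-fold, as in the study. With 1 array for each line no p-value was computed, and the number of arrays limits the precision. The genes and lists were chosen with earlier results of these data known. Genes named in full were those past 3-fold, their neighbours and the 5 brightest, and the rest are given by value or count. Alternatives were median centring, quantile normalization, loess (span 0.3, 3 iterations), other floors, other choices of probe set and marks of 2-fold and 5-fold. The steps were tested on simulated data. Analyses used Python 3.11.15, pandas 2.3.3 and statsmodels 0.14.6.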

Additional observations from a re-analysis of the deposited data

How the results depend on the processing

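ZNF615, ZNF614 and ZNF432 were at least 3-fold lower, and 0 of the listed genes 3-fold higher, on the deposited values and after median centring, quantile normalization or loess, with 15 of 19 lower each time. The counts depend on the floor. Without one, 8 of 32 genes were at least 3-fold lower, 2 higher and 24 lower by any amount, beside 9.78% of all genes 3-fold lower and 8.70% higher. A 25th-percentile floor left 5 of 29 genes 3-fold lower, beside 4.83% of all, and 23 lower by any amount. A 75th-percentile floor left 0 of 8 genes 3-fold lower, beside 1.46% of all, and 8 lower by any amount. At that floor ZNF614 (-1.10), ZNF432 (-0.69) and ZNF615 (-0.19) had bounds short of 3-fold, because their A549/DDP signals were raised. A 2-fold mark gave 6 lower genes and a 5-fold mark 2. Leaving out _x_at and _s_at probe sets left 11 expressed genes, 9 of them lower, and took ZNF432 out. For all genes, shares lower by any amount or past 5-fold were not computed at these alternative settings. Nothing is read from the matching counts of listed genes. With the median over probe sets or the dimmest one over the floor, ZNF614 (-0.75 in each case) was short of 3-fold. Both values are bounds, with the A549/DDP signal raised to the floor. ZNF83 and ZNF160 had the other direction with the dimmest probe set, ZNF83 also without _x_at and _s_at probe sets, and ZNF175, ZNF616 and ZNF160 with the median over probe sets. That median also takes in probe sets under the floor. With it ZNF350 moved to -0.27, ZNF701 to -0.55 and ZNF83 to -0.01, while ZNF611 moved to -1.49. The median difference ran from -0.63 to -0.31 over these settings. No paired analysis was possible because each line had 1 array. Signals near the floor limit what can be seen in the 13 genes under it.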

Other observations

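Probe sets that name several genes were kept out of the report. The one shared by ZNF320 and TMEM192 read 10.53 in A549 and 10.18 in A549/DDP, a difference of -0.34, opposite in sign to the single-gene probe set of ZNF320. If it were let in, a setting chosen after seeing the data, 16 of 19 genes would be lower. The one shared by ZNF816 and a read-through transcript was under the floor on both arrays, at 5.47 and 2.63. The zinc-finger pseudogenes ZNF137P and ZNF702P, which lie between the listed genes, were also under the floor on both arrays, at 5.14 and 0.63 and at 4.03 and 0.84.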
